A study of Homo sapiens with 12 samples.

Results

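Retinoid handling was described through 9 genes of A375 melanoma cells: the retinol receptor gene STRA6, the retinoic acid carrier gene CRABP2, the enzyme genes DHRS3, ALDH1A1, ALDH1A3 and CYP26B1, and the receptor genes RARA, RARB and RARG. They were taken by symbol from the 56609 symbols of the count table, where all 9 were found. STRA6 was chosen by its response to the drug JQ1, measured as RNA level in these same libraries, which differed between genotypes. Its values are therefore given as a description without a test. The other genes were taken for their place in the pathway, but with earlier results of these data known.

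A375 is an established human melanoma cell line. RNA was sequenced from 12 samples in 4 groups of 3. These were wild-type cells and cells with MAPKAPK2 knocked out by CRISPR/Cas9, each kept for 48 h with DMSO, the solvent control, or with 500 nM JQ1. MAPKAPK2 encodes the stress-activated kinase MK2, and JQ1 displaces BET bromodomain proteins from acetylated chromatin. The series asked how loss of MAPKAPK2 affects resistance to such inhibitors. Whether the knockout cells are 1 clone, and whether replicates were separate cultures, is not given in the sources used here, so p-values measure only the spread between these samples.

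Vitamin A travels in blood bound to retinol-binding protein, and STRA6 is the membrane receptor that takes it up from that carrier. Inside cells, retinol is oxidised to retinaldehyde, which DHRS3 can reduce back to retinol, and ALDH1A enzymes turn retinaldehyde into retinoic acid. CRABP2 carries retinoic acid to the nucleus, where receptors of the RAR family, paired with RXR partners, switch genes on, and CYP26 enzymes degrade it. Retinoids are known for slowing growth and promoting differentiation of melanoma cells in culture.

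Libraries held from 25316899 to 34594295 estimated counts. MAPKAPK2 stood at 13.9% of its wild-type level in knockout cells in DMSO and at 12.3% in JQ1, in the direction of the labels. Knockout JQ1 replicate 3 stood apart from its replicates: the chi-square per degree of freedom was 28.1 and 29.7 against them, and from 3.5 to 8.06 between other replicates of a group. The melanoma genes SOX10, MITF and S100B were abundant, with SOX10 at 437 ± 7.38 CPM in wild-type DMSO (SD, n = 3; CPM are counts per 1000000 after scaling). In both treatments MITF was called lower and S100B higher in knockout. Of 5 neural crest or dedifferentiated markers, AXL went from 248 to 469 CPM with JQ1 in wild type and from 198 to 398 CPM in knockout. NGFR fell with JQ1 in wild type, and in knockout it was at 1.7 CPM with DMSO and 1.75 CPM with JQ1. Between genotypes 3 of the 5 were lower and 0 higher in each treatment, with NGFR at 8.01 CPM in wild-type and 1.7 CPM in knockout DMSO. Of all genes, 7.92% were called in DMSO and 8.57% in JQ1. The pigment genes PMEL, MLANA, TYR, DCT and TYRP1 were low, with group means no higher than 1.18 CPM. Of 6 fibroblast markers, 3 averaged at least 1 CPM, and their summed level ranged from 22.6 to 23.3 CPM with DMSO and from 14.3 to 16.9 CPM with JQ1 in wild type. In knockout cells the sum ranged from 17.4 to 18.8 CPM with DMSO and from 9.81 to 12.1 CPM with JQ1. Of the 5 tested, 1 was called higher and 4 lower with JQ1 in wild type, and 1 higher and 2 lower in knockout. PDGFRA rose in wild type and knockout, by 0.64 and 0.61 on the log2 scale (edgeR adjusted p = 0.00161 and 0.00314). PDGFRB was at -1.41 and -1.83 (edgeR adjusted p = 2.24e-06 and 3.63e-07), and LUM at -2.92 and -2.8 (edgeR adjusted p = 6.91e-07 and 7.57e-07). COL1A1 and DCN were called lower in wild type, at -1.54 and -1.48 (edgeR adjusted p = 0.00637 and 0.00212). Of 4 leukocyte markers, 1 averaged at least 1 CPM, CD68, and the list's sum ranged from 15.5 to 17.8 CPM with DMSO and from 14.9 to 17.1 CPM with JQ1 in wild type. In knockout it ranged from 11.4 to 17.2 CPM with DMSO and from 9.53 to 10.9 CPM with JQ1. CD68 was at -0.01 with JQ1 in wild type and at -0.57 in knockout (edgeR adjusted p = 0.971 and 0.00617), and the difference of these responses was -0.56 (edgeR adjusted p = 0.448). No fibroblast or leukocyte marker was at 0 in all libraries, and the part of such cells in the results was not tested. In bulk RNA, fewer cells that express a gene and less RNA per cell cannot be told apart.

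One member promoter carried an exact retinoic acid response element, the paired half-site to which RAR and RXR bind. The half-sites AGGTCA or AGTTCA, and likewise GGGTCA or GGTTCA, were searched as direct repeats with 1, 2 or 5 bases between them, on both strands. The search covered the 20 RefSeq promoter windows (GRCh38.p14, 250 bases before to 50 after a start site) that the table held for the 9 genes. The match lay in an RARB window, from 53 to 37 bases before the start site. Below are the 250 bases before that start, chr3:25428013-25428262 on the plus strand, with the half-sites in capitals, shown because RARB had the largest fall with JQ1 among the members tested.
RARB: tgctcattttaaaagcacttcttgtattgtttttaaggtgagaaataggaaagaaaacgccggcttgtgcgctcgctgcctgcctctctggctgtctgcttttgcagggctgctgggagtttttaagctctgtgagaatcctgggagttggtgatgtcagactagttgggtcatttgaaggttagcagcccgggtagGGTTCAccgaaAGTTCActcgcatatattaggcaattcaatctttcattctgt
Of 35116 windows in the whole table, 0.088% held such a repeat with 5 bases between, and 0.259% held one with any of the 3 spacings. The 5 STRA6 windows held no exact match. The 250 bases before its outermost start, chr15:74212260-74212509 on the minus strand, are given without capitals because STRA6 is the gene whose response differed by genotype.
STRA6: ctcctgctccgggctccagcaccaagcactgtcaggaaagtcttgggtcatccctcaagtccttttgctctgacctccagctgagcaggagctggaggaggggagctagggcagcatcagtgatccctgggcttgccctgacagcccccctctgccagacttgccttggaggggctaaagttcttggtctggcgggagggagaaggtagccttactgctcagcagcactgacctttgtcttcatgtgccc
A match describes letters in a window. These data do not show which start site was used or what bound there.

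Levels differed widely between the members. On a scale of CPM per kilobase of the longest coding transcript in GENCODE 29, wild-type DMSO cells held ALDH1A3 at 352 ± 4.37, DHRS3 at 108 ± 4.61, STRA6 at 19.9 ± 0.463 and RARG at 15.6 ± 0.698 (SD, n = 3). Below these came RARA at 5.8 ± 0.115, RARB at 1.68 ± 0.263, CRABP2 at 0.715 ± 0.206 and CYP26B1 at 0.474 ± 0.0163 on the same scale. CRABP2 and CYP26B1 did not separate beyond their spread, while the ranges of the other neighbours in this order did not meet. ALDH1A1 had 3 counts in this group and 4 in all 12 libraries together, so ALDH1A3 was the more abundant of the ALDH1A members measured. In wild-type JQ1 and in knockout DMSO, with 0 counts of ALDH1A1, a level of up to 0.0324 and 0.0337 CPM remains possible at 3 counts over the group, for counting error alone.

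The order in the middle was different in knockout cells with JQ1. There STRA6 was at 8.35 ± 0.765, RARA at 7.99 ± 2.12 and RARG at 7.23 ± 0.962 CPM per kilobase (SD, n = 3), and the ranges of these genes overlapped. In wild-type JQ1 cells STRA6 stayed above both receptors, at 19.5 ± 2.53 against 10.1 ± 0.914 for RARG and 7.62 ± 0.649 for RARA on that scale.

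**Figure D1:**
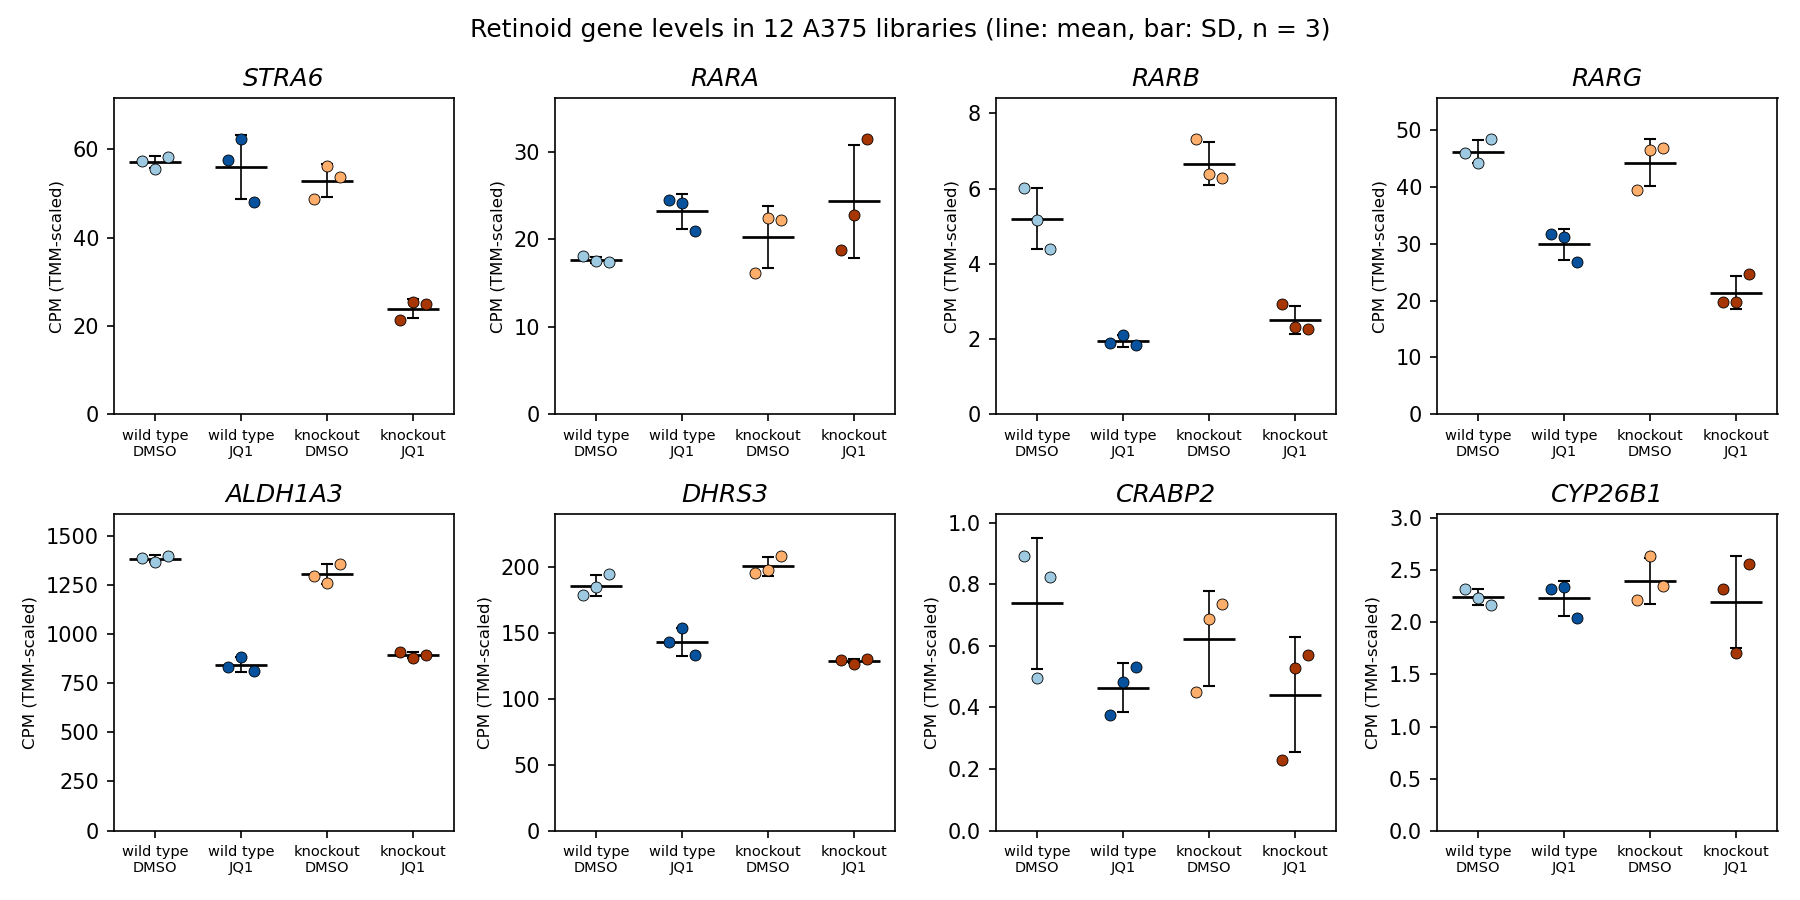
TMM-scaled CPM (vertical axis, from 0) of 8 retinoid genes in each library, by group, with the mean as a line and the SD as a bar (n = 3). STRA6 lay between 21.4 and 25.4 CPM in the knockout JQ1 libraries and between 48.1 and 62.3 CPM in the other libraries.

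STRA6 (ENSG00000137868.18), on chromosome 15 from 74179466 to 74212267 on the minus strand of GRCh38, separated 1 group from the other groups. It was at 57.4, 55.7 and 58.3 CPM in wild-type DMSO and at 57.5, 62.3 and 48.1 CPM in wild-type JQ1. Knockout DMSO libraries held 48.8, 56.2 and 53.8 CPM, and knockout JQ1 libraries held 21.4, 25.4 and 25 CPM. All 3 knockout JQ1 libraries were thus below every other library, and the remaining groups overlapped.

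As a description, the log2 fold change of STRA6 with JQ1 was -0.03 (SE 0.09) in wild type and -1.14 (SE 0.10) in knockout, where JQ1 libraries were 2.21-fold lower than DMSO libraries. Knockout against wild type it was -0.11 (SE 0.09) in DMSO and -1.22 (SE 0.10) in JQ1. The difference of its JQ1 responses, the value for which it was chosen, was -1.11 (SE 0.13). Among the other members, the values nearest to it on the same scale were -0.42 for RARG and -0.26 for DHRS3. Without knockout JQ1 replicate 3 the difference for STRA6 was -1.15.

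The authors' own normalization divided each count by a factor of the gene and the library. Set against the library median, this factor for STRA6 ran from 0.991 to 1.012 over the 12 libraries. Exons of STRA6 share 540 bases with CCDC33 on the opposite strand, a gene with 59 counts in all libraries, against at least 562 counts of STRA6 in each.

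A tested gene beside STRA6 was ISLR, an immunoglobulin-domain gene from 74173671 to 74176872 on the plus strand, chosen for mention after its values were seen. ISLR averaged 5.14 CPM. Tests used the quasi-likelihood method of edgeR, with p adjusted by Benjamini-Hochberg over all genes tested, and a gene passes at an adjusted p under 0.05. It fell with JQ1 by 0.57 on the log2 scale in wild type (edgeR adjusted p = 0.00929) and by 1.45 in knockout (edgeR adjusted p = 1.34e-05). In JQ1 it was lower in knockout, with a log2 fold change of -1.37 (edgeR adjusted p = 0.000127), and in DMSO it was at -0.49 (edgeR adjusted p = 0.0662). The difference of its JQ1 responses was -0.88 and did not pass (edgeR adjusted p = 0.243). On the other side, CYP11A1, a steroid-synthesis gene named after its values were seen, averaged 0.399 CPM and was lower with JQ1 in wild type and knockout (edgeR adjusted p = 0.000748 and 8.39e-05). Its log2 fold changes were -2.72 and -4.69, which are uncertain at so low a level. The difference of its JQ1 responses was -1.97 (edgeR adjusted p = 0.63). Of the other neighbours tested, ISLR2 was at 0.24 with JQ1 in wild type and 0.05 in knockout, AC010931.3 at -0.87 and 0.23, and AC090826.1 at -0.28 and -0.06, none of which passed with edgeR. AC090826.2 was lower in both, at -1.86 and -1.97 (edgeR adjusted p = 0.000895 and 0.000687). ISLR2, AC010931.3 and AC090826.2 averaged 0.489, 0.221 and 0.76 CPM, so their folds are uncertain too. For all 6 neighbours the difference of the JQ1 responses did not pass.

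Genes with a pattern like that of STRA6 were ranked by Pearson's r of log2 CPM over the 12 libraries, over 15409 genes that averaged 1 CPM or more. The libraries share their groups, so the values only describe likeness. The 5 highest were DKK3 (0.964), IL17RD (0.963), ANGPTL2 (0.959), SH3TC1 (0.953) and PTPRH (0.951). DKK3 is a secreted protein of the Dickkopf family, IL17RD an inhibitor of growth factor signalling, and ANGPTL2 a secreted angiopoietin-like protein. In knockout JQ1 they stood at 47.5%, 37.5%, 39.9%, 21.9% and 50.6% of their wild-type DMSO means, in that order. The 3 lowest r were those of CD47 (-0.964), TMA7 (-0.951) and OSTC (-0.95). Of the other members, RARG was the nearest to STRA6, with r of 0.828 at rank 269, and RARA was at -0.296.

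**Figure D2:**
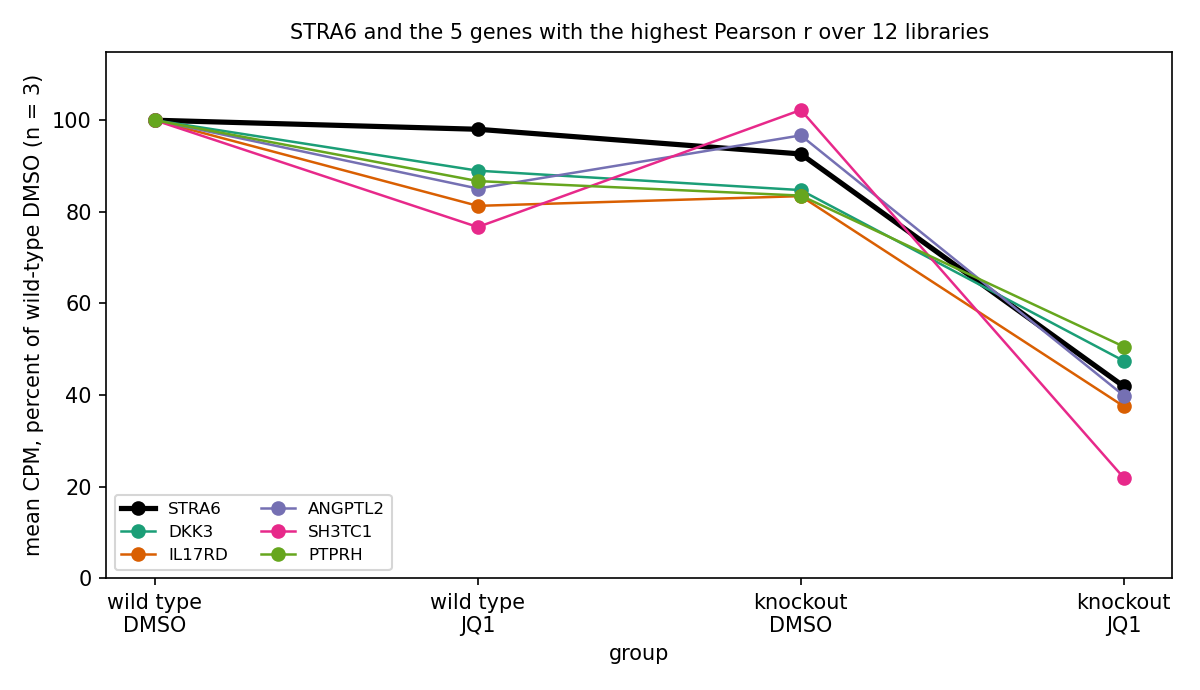
Group means of CPM as a percentage of the wild-type DMSO mean (vertical axis, n = 3 per point) in the 4 groups, for STRA6 and the 5 genes most like it; the lines join means of separate groups. STRA6 and the 5 genes are lowest in knockout JQ1, where SH3TC1 is at 21.9% and PTPRH at 50.6%.

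For the other members the effect of JQ1 was tested in each genotype. In wild type, 4 of the 7 tested fell and 0 rose, where 33.1% of all 21698 genes tested passed, 16.2% lower and 16.9% higher. In knockout cells 4 of 7 fell and 0 rose, where 34.4% of all genes passed, 17.8% lower and 16.7% higher. The 4 that fell were RARB, RARG, ALDH1A3 and DHRS3 in each genotype. With library totals as the only scaling, 5368 genes were lower and 2298 higher in wild type, and 5250 lower and 2409 higher in knockout. That scaling moved the median log2 fold change of all genes from -0.034 to -0.162 in wild type and from -0.004 to -0.119 in knockout. The 4 falls stayed below those medians, at -1.55, -0.76, -0.84 and -0.51 in wild type for RARB, RARG, ALDH1A3 and DHRS3.

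RARB (chromosome 3, 25174332 to 25597932, plus strand) encodes retinoic acid receptor beta, itself a classical target of retinoic acid. Wild-type DMSO libraries held it at 6.02, 5.17 and 4.4 CPM, and wild-type JQ1 libraries at 1.88, 2.12 and 1.83 CPM. In knockout it was at 7.31, 6.39 and 6.28 CPM in DMSO and at 2.93, 2.31 and 2.28 CPM in JQ1. Every JQ1 library was below every DMSO library. The log2 fold change with JQ1 was -1.42 in wild type (SE 0.15, edgeR adjusted p = 6.8e-06) and -1.41 in knockout (SE 0.15, edgeR adjusted p = 4.8e-06). The difference of these responses was 0.01, with a 95% interval from -0.43 to 0.45. RARB was higher in knockout by 0.36 in DMSO and 0.37 in JQ1 on the log2 scale, which did not pass (edgeR adjusted p = 0.155 and 0.224). TOP2B, on the opposite strand, shares 28 exon bases with RARB and had 81950 counts in all libraries, against 1486 for RARB. With JQ1 its mean went from 252 to 204 CPM in wild type and from 260 to 187 CPM in knockout. Whether counting used the strand is not stated, so reads of the shared bases may not be separate.

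RARG (chromosome 12, 53210567 to 53232980, minus strand) encodes retinoic acid receptor gamma, the receptor known for its role in skin. It was at 46, 44.3 and 48.4 CPM in wild-type DMSO and at 31.7, 31.2 and 26.8 CPM in wild-type JQ1. Knockout libraries held 39.5, 46.5 and 46.8 CPM in DMSO and 19.8, 19.7 and 24.7 CPM in JQ1. The DMSO groups overlapped, and all knockout JQ1 libraries were below all wild-type JQ1 libraries, the nearest at 24.7 and 26.8 CPM. RARG fell by 0.63 in wild type (SE 0.10, edgeR adjusted p = 0.000176) and by 1.04 in knockout (SE 0.10, edgeR adjusted p = 1.75e-06) on the log2 scale. In JQ1 it was lower in knockout than in wild type, at -0.48 (SE 0.10, edgeR adjusted p = 0.00765), and in DMSO it did not differ detectably (-0.06, edgeR adjusted p = 0.797).

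The difference of the JQ1 responses of RARG was -0.42 (SE 0.14, 95% interval -0.72 to -0.12). It missed the threshold over all genes (edgeR adjusted p = 0.416). Without knockout JQ1 replicate 3, the RARG library at 24.7 CPM, the difference was -0.53 (edgeR adjusted p = 0.0692).

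RARA (chromosome 17, 40309192 to 40357643, plus strand) encodes retinoic acid receptor alpha, the most broadly expressed of the receptors. It was at 18, 17.5 and 17.4 CPM in wild-type DMSO and at 24.4, 24.2 and 20.9 CPM in wild-type JQ1. The knockout libraries were more scattered, at 16.1, 22.4 and 22.2 CPM in DMSO and at 18.8, 22.8 and 31.4 CPM in JQ1. The wild-type groups did not overlap, whereas the knockout groups did.

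With JQ1, RARA was at a log2 fold change of 0.39 in wild type (SE 0.16, edgeR adjusted p = 0.0731) and 0.27 in knockout (SE 0.16, edgeR adjusted p = 0.216). Neither passed. The wild-type value passed in 7 of 19 alternatives. Among them, RARA was at 0.40 with only the groups compared (edgeR adjusted p = 0.00121), at 0.41 with DESeq2 (adjusted p = 0.0409) and at 0.39 without knockout JQ1 replicate 3 (edgeR adjusted p = 0.0115), which held 31.4 CPM. Without that library the knockout value of RARA was 0.04, and without knockout JQ1 replicate 1 it was 0.43 (edgeR adjusted p = 0.0389). RARA shares 556 exon bases with the antisense gene RARA-AS1, whose counts were from 21.1% to 38% of those of RARA. Whether counting used the strand is not stated, so reads of these overlapping genes may not be separate.

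**Figure D3:**
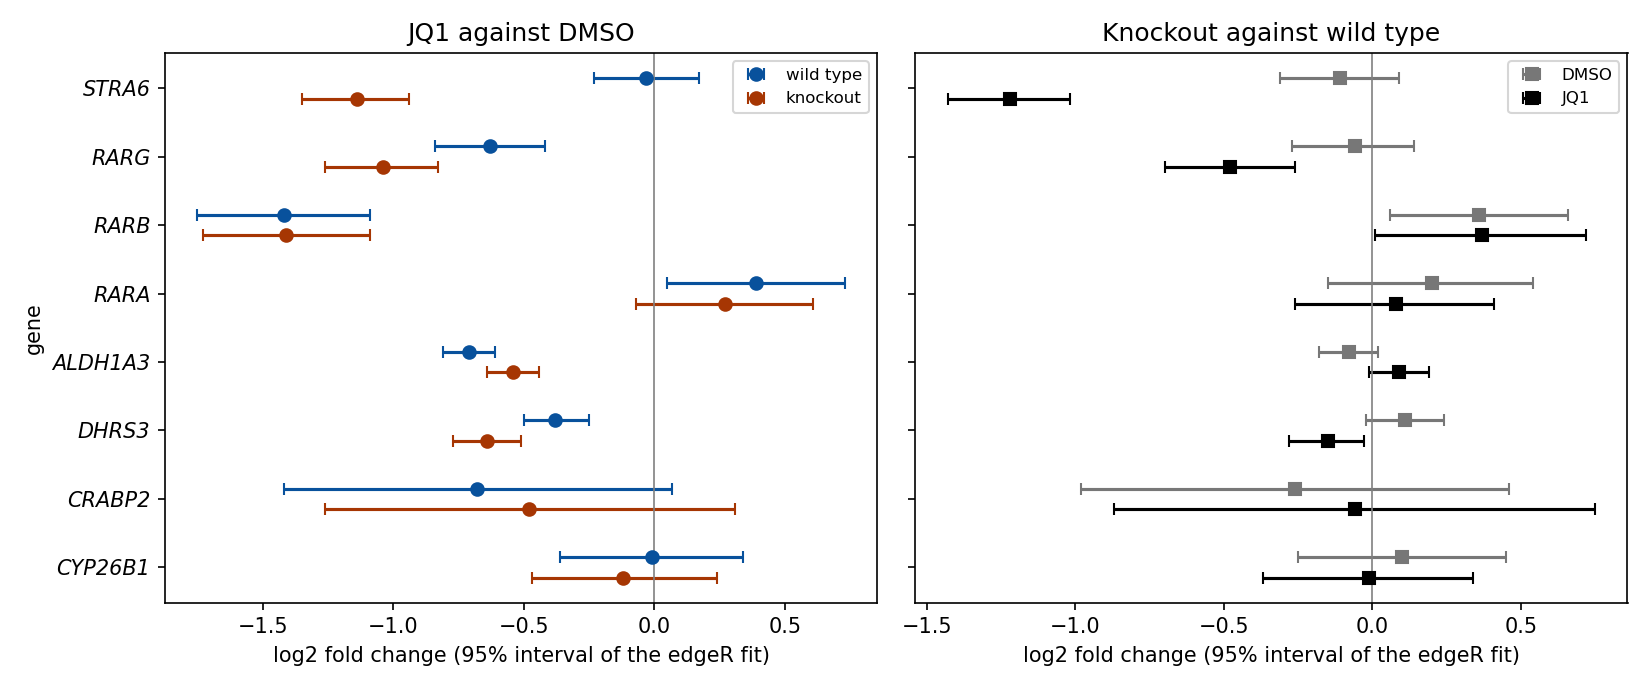
Log2 fold changes (horizontal axis) with 95% intervals of the edgeR fit for 8 retinoid genes, for JQ1 against DMSO (left, by genotype) and knockout against wild type (right, by treatment). RARB has nearly equal falls in both genotypes, -1.42 and -1.41, and STRA6 is shown as a description since its response chose it.

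ALDH1A3 (chromosome 15, 100877714 to 100916626, plus strand) encodes the aldehyde dehydrogenase that makes retinoic acid from retinaldehyde. It was at 1385, 1365 and 1399 CPM in wild-type DMSO and at 834, 884 and 810 CPM in wild-type JQ1. Knockout libraries held 1297, 1259 and 1358 CPM in DMSO and 909, 880 and 895 CPM in JQ1. No JQ1 library reached a DMSO library. ALDH1A3 fell by 0.71 in wild type (SE 0.05, edgeR adjusted p = 4.48e-08) and by 0.54 in knockout (SE 0.05, edgeR adjusted p = 5.41e-07) on the log2 scale. The difference of these responses was 0.17 (SE 0.07) and did not pass (edgeR adjusted p = 0.502).

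The antisense gene AC015712.2, which shares 1585 exon bases with ALDH1A3, fell by 0.71 in wild type and 0.66 in knockout on the log2 scale (edgeR adjusted p = 1.72e-06 and 3.65e-06). In wild type its counts were 6.6% ± 0.384 of those of ALDH1A3 with DMSO and 6.6% ± 0.183 with JQ1, and in knockout 6.23% ± 0.447 and 5.76% ± 0.368 (SD, n = 3). Without stated strand use, the transcripts of this pair cannot be told apart.

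DHRS3 (chromosome 1, 12567910 to 12617731, minus strand) encodes a short-chain reductase that turns retinaldehyde back into retinol. It was at 178, 185 and 194 CPM in wild-type DMSO and at 143, 154 and 133 CPM in wild-type JQ1. Knockout libraries held 195, 198 and 209 CPM in DMSO and 129, 127 and 130 CPM in JQ1. The JQ1 libraries lay below the DMSO libraries in each genotype. Knockout JQ1 lay below wild-type JQ1, the nearest libraries at 130 and 133 CPM. That genotype difference in JQ1 was -0.15 on the log2 scale and did not pass (edgeR adjusted p = 0.147). DHRS3 fell by 0.38 in wild type (SE 0.06, edgeR adjusted p = 0.000194) and by 0.64 in knockout (SE 0.06, edgeR adjusted p = 1.26e-06). The difference of the responses, -0.26 (SE 0.08, 95% interval -0.44 to -0.08), did not pass over all genes (edgeR adjusted p = 0.38).

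CYP26B1 (chromosome 2, 72129238 to 72148038, minus strand) encodes an enzyme that degrades retinoic acid. It ranged from 1.7 to 2.64 CPM over the 12 libraries, with all groups overlapping. Its log2 fold change with JQ1 was -0.01 in wild type, with a 95% interval from -0.36 to 0.34 (edgeR adjusted p = 0.98), and -0.12 in knockout, from -0.47 to 0.24 (edgeR adjusted p = 0.63).

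CRABP2 (chromosome 1, 156699606 to 156705816, minus strand) was near the limit of measurement, with from 6 to 30 counts per library. Wild-type means were 0.738 ± 0.213 CPM with DMSO and 0.464 ± 0.0794 CPM with JQ1, and knockout means were 0.624 ± 0.154 and 0.442 ± 0.186 CPM (SD, n = 3), with all groups overlapping. The log2 fold changes with JQ1 were -0.68 in wild type (95% interval -1.42 to 0.07, edgeR adjusted p = 0.155) and -0.48 in knockout (-1.26 to 0.31, edgeR adjusted p = 0.355). Neither passed. ALDH1A1 (chromosome 9, 72900662 to 73080442, minus strand) was too low to be tested.

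The members other than STRA6 were also compared between genotypes. In DMSO, 0 of 7 passed with edgeR, where 7.92% of all genes passed, 3.47% higher and 4.44% lower. At an unadjusted p under 0.05 there was 1, RARB, where 19.7% of all genes were under it, and DESeq2 called 0. In JQ1, RARG was the 1 of 7 that passed and was lower, where 8.57% of all genes passed, 3.01% higher and 5.56% lower. For the difference of the JQ1 responses 0 of 7 passed with edgeR and 0 with DESeq2, where 0.134% of all genes passed, 0.0323% higher and 0.101% lower. At an unadjusted p under 0.05 there were 3, DHRS3, RARG and ALDH1A3, where 8.37% of all genes were under it.

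Other genes of the pathway were counted from 3 lists. Of 33 genes of retinoid transport and metabolism, 14 were expressed enough to be tested. With JQ1, 4 rose and 3 fell in wild type, and 3 rose and 3 fell in knockout, with a median log2 fold change of 0.04 and -0.09. Over all genes 33.1% and 34.4% passed, with medians of -0.03 and 0. RLBP1, the retinaldehyde-binding protein of the visual cycle, fell by 1.46 in wild type (SE 0.19, edgeR adjusted p = 3.05e-05) and by 1.48 in knockout (SE 0.18, edgeR adjusted p = 1.99e-05). The retinol saturase gene RETSAT rose by 0.45 and 0.37 in wild type and knockout (edgeR adjusted p = 0.00013 and 0.000647). FABP5, which carries fatty acids and retinoic acid, rose by 0.43 and 0.38 in wild type and knockout (edgeR adjusted p = 0.00022 and 0.00055).

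RDH10, the dehydrogenase that oxidises retinol to retinaldehyde, was the 1 of 14 tested genes of that list called between genotypes. Of all genes, 7.92% were called in DMSO and 8.57% in JQ1. With DMSO it was at 24.6 ± 0.535 CPM in wild type and 38.5 ± 2.66 CPM in knockout, and with JQ1 at 19.5 ± 1.13 and 28.5 ± 1.63 CPM (SD, n = 3). It was higher in knockout by 0.65 in DMSO (SE 0.07, edgeR adjusted p = 5.05e-05) and by 0.55 in JQ1 (SE 0.08, edgeR adjusted p = 0.000286). With JQ1 RDH10 was at -0.33 in wild type and -0.43 in knockout (edgeR adjusted p = 0.00339 and 0.00032). TTR, a retinol carrier of blood, was called lower with JQ1 in both genotypes but had only from 0 to 12 counts per library. CRABP1 and CYP26A1 were too low to be tested.

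All 21 receptor partners and cofactors were tested. With JQ1, 6 rose and 3 fell in wild type and 3 rose and 5 fell in knockout, with medians of 0.1 and -0.01, where 33.1% and 34.4% of all genes passed. RXRG, an RXR partner, fell with JQ1 from 13.2 ± 0.994 to 3.51 ± 0.255 CPM in wild type and from 7.24 ± 0.835 to 1.65 ± 0.525 CPM in knockout (SD, n = 3). These are log2 fold changes of -1.92 (SE 0.15, edgeR adjusted p = 3.46e-07) and -2.14 (SE 0.18, edgeR adjusted p = 3.61e-07). RXRG was also lower in knockout than in wild type, at -0.87 in DMSO and -1.09 in JQ1 (edgeR adjusted p = 0.00135 and 0.00147). RXRB, at 37.3 ± 0.329 CPM in wild-type DMSO, rose by 0.20 with JQ1 in wild type (edgeR adjusted p = 0.0198), and RXRA did not pass in any contrast.

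The corepressor subunit TBL1X fell by 0.60 and 0.54 in wild type and knockout (edgeR adjusted p = 1.13e-06 and 2.52e-06). The cofactor TRIM24 rose by 0.49 and 0.37 (edgeR adjusted p = 1.29e-05 and 0.000139), and the coactivator NCOA2 was at -0.41 and -0.64 (edgeR adjusted p = 0.00177 and 3.52e-05). Between genotypes, 1 of the 21 genes was higher and 2 were lower in DMSO, and 1 was higher and 3 were lower in JQ1. Of all genes, 7.92% passed in DMSO and 8.57% in JQ1. The orphan receptor RORA was lower in knockout, at -0.74 in DMSO (edgeR adjusted p = 0.0146) and -1.34 in JQ1 (edgeR adjusted p = 0.000173). The DMSO call of RORA was lost without wild-type DMSO replicate 3 (0.0812), knockout DMSO replicate 1 (0.0506) or knockout DMSO replicate 3 (0.0641). NR2F2, also an orphan receptor, was higher by 0.41 in DMSO (edgeR adjusted p = 0.00648) and by 0.33 in JQ1 (edgeR adjusted p = 0.0253). The JQ1 call of NR2F2 was lost with only the groups compared (0.0931) and without wild-type JQ1 replicate 1 (0.0541), replicate 2 (0.0615) or replicate 3 (0.107).

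Of 30 genes known to be induced by retinoic acid, 21 were tested. With JQ1, 2 rose and 8 fell in wild type, and 1 rose and 10 fell in knockout, with medians of -0.3 and -0.26. Over all genes 16.2% and 17.8% were lower, 16.9% and 16.7% higher, and the medians were -0.03 and 0. ICAM1, TNFAIP2 and TGM2 fell most clearly by adjusted p. They encode an adhesion molecule, a protein induced by tumour necrosis factor, and a transglutaminase, and inflammatory signals induce them too. Their log2 fold changes were -1.21, -1.13 and -0.63 in wild type and -2.14, -1.49 and -1.2 in knockout, and the edgeR adjusted p of these 6 values was no higher than 0.00015. Between genotypes, 3 of the 21 were higher and 3 lower in each treatment, where 7.92% of all genes passed in DMSO and 8.57% in JQ1.

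TGM2 went from 87.9 ± 4.18 CPM with DMSO to 56.8 ± 7.35 CPM with JQ1 in wild type, and from 39.1 ± 0.567 to 16.9 ± 2.4 CPM in knockout (SD, n = 3). Knockout cells had less of it, at -1.17 in DMSO (SE 0.10, edgeR adjusted p = 2.49e-06) and at -1.74 in JQ1 (SE 0.10, edgeR adjusted p = 7.3e-08). ICAM1 went from 54.5 ± 1.23 to 23.5 ± 2.15 CPM in wild type and from 37.8 ± 2.91 to 8.51 ± 1.12 CPM in knockout. It was lower in knockout, at -0.53 in DMSO and -1.46 in JQ1 (edgeR adjusted p = 0.00146 and 3.25e-07). TNFAIP2 was at -0.84 in JQ1 (edgeR adjusted p = 0.00032). In DMSO TNFAIP2 was also called lower in knockout, at 11.8 CPM against 16.4 CPM in wild type. For ICAM1 the difference of the JQ1 responses also passed, at -0.93 (SE 0.13, edgeR adjusted p = 0.0149), the 1 call among the 3 lists in that contrast. This call was lost in 5 of 18 alternatives, each with 1 library left out, where the adjusted p reached 0.0587.

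**Figure D4:**
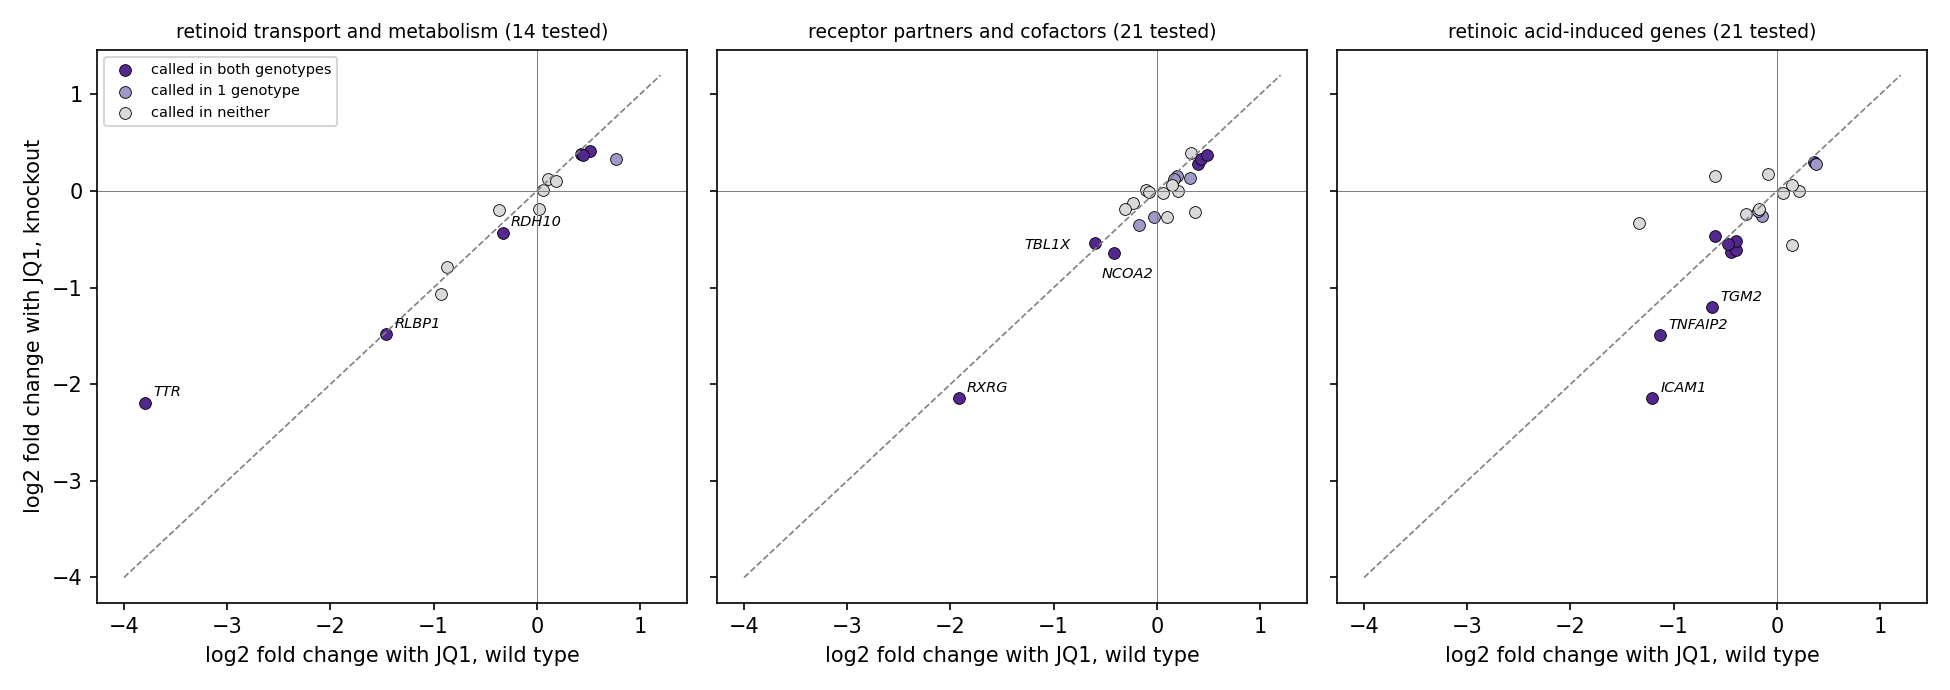
Log2 fold change with JQ1 in wild type (horizontal) and in knockout (vertical) for the tested genes of 3 retinoid lists; colour gives in how many genotypes the edgeR call was made, and the dashed line marks equal change. RXRG is at -1.92 and -2.14, RLBP1 at -1.46 and -1.48, and ICAM1 at -1.21 and -2.14; TTR, a retinol carrier, rests on at most 12 counts per library.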

How the data were processed

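The authors deposited estimated counts per gene symbol and, in a second table, a normalized signal equal to the rounded count divided by a factor of the gene and the library. The submitters' processing notes name Trim Galore, cutadapt, FastQC, MultiQC, kallisto and DESeq2 and the build GRCh38.p10, with no versions or settings. Per the labels' protocols, rRNA-depleted total RNA went into directional libraries. Tests had been planned for whole counts, and the estimated counts were rounded first. The sample titles say untreated where the treatment field says DMSO, and the latter was followed.

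Genes were filtered with filterByExpr, which kept 21698, scaled with TMM (factors from 0.926 to 1.06) and fitted in 1 model with a term per group (edgeR 4.0.16 quasi-likelihood test, R 4.3.3, prior count 0.125). Benjamini-Hochberg adjustment ran over every tested gene, with a threshold of 0.05. An SE is the absolute log2 fold change over the square root of F. Calls between knockout and wild type share libraries with the JQ1 contrasts. Alternatives were other scalings, no filter, DESeq2 1.42.0, the authors' factors, a replicate block, only the groups compared, and each library left out. The script was tested on simulated data.

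The members and lists were chosen with earlier results of these data known. Named were all members, up to 3 called genes per list and contrast by adjusted p, and the genes most like STRA6. The neighbours of STRA6, the marker genes, RXRA, RXRB, TTR, TOP2B and the list genes too low to test fall outside that rule. They were named after their values were seen. Of the list symbols, 1 was matched through an older name, and 5 genes are in 2 lists. Coordinates are from GENCODE 29 (GRCh38), and promoters from RefSeq.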

Additional observations from a re-analysis of the deposited data

Results flagged for a closer look

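Among the list genes, ICAM1 was the 1 call for a difference of JQ1 responses between genotypes. Over all genes tested, 29 were called, or 0.134%. STRA6, at -1.11 (log2, knockout minus wild type), was chosen for that value, so it is listed only as a description. ICAM1, from the list of retinoic acid-induced genes, had a difference of -0.93 (edgeR adjusted p = 0.0149). It was lower in all 3 knockout JQ1 libraries, at 7.58, 8.2 and 9.75 CPM, than in any wild-type JQ1 library, where the lowest was 21.2 CPM. That gap includes a difference already present in DMSO, where ICAM1 was at -0.53 in knockout against wild type (edgeR adjusted p = 0.00146). The ICAM1 call was lost when wild-type DMSO replicate 3 was left out (0.0514), when replicate 1 (0.0553) or 2 (0.0543) of wild-type JQ1 was, and when replicate 2 (0.0528) or 3 (0.0587) of knockout DMSO was, and its adjusted p over all alternatives ran from 1.1e-07 to 0.0587. Groups of 3 are too small for a test of single outlying libraries.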

How the results depend on the processing

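The 9 calls of members other than STRA6 held in all 19 alternatives each, and the STRA6 difference ran from -1.21 to -1.03 over 18. Of 752 recomputed member values, 715 counted as unchanged. For STRA6 this meant a move smaller than the SD between replicates, with no threshold applied. For the other members it meant the same direction and side of the threshold. Of the rest, 8 (all RARA with JQ1) newly passed and 29, none of them STRA6, changed sign. Within its SD, STRA6 with JQ1 in wild type ran from -0.16 to 0.07, on both sides of no change. CYP26B1 with JQ1 in wild type was 0.01 with RLE factors and with DESeq2, 0 without the filter or with only the groups compared, and 0.10 with the authors' factors. The difference of the RARB responses was 0 with RLE factors and DESeq2, -0.01 without the filter and -0.08 with the authors' factors. Leaving out 1 library gave, with JQ1, -0.04 to 0.06 (CYP26B1, wild type) and -0.25 to 0.03 (CYP26B1, knockout); between genotypes, -0.10 to 0.02 (RARG, DMSO), -0.31 to 0.24 (CRABP2, JQ1), -0.14 to 0.13 (CYP26B1, JQ1) and -0.16 to 0.23 (RARA, JQ1); and for the difference of responses -0.05 to 0.50 (CRABP2), -0.24 to 0.03 (CYP26B1), -0.35 to 0.03 (RARA) and -0.12 to 0.12 (RARB). The cause was not tested.

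Counts over all genes moved more. Between genotypes in DMSO, 1718 genes became 1099 to 2665 with 1 library left out (1114 and 1099 without wild-type DMSO replicates 1 and 2, 1109 without knockout DMSO replicate 3, 2665 without knockout JQ1 replicate 3). In JQ1, 1860 became 918 with only the groups compared and 1232 (without wild-type JQ1 replicate 2) to 2351 with 1 left out. The difference of responses, 29 genes, became 236 without the filter, 139 with DESeq2 and 8 to 92 with 1 left out, highest without knockout JQ1 replicate 3 and under 20 without any 1 wild-type or knockout DMSO library or wild-type JQ1 library. Allowing 1 mismatch gave 3 member promoters with a response element, against 1, while the share of all windows rose from 0.259% to 4.747%. By Spearman's rho, 0 of the 5 genes most like STRA6 were among its 5 nearest.

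Same-numbered replicates showed little shared deviation (r from -0.115 to 0.0786 over 18 pairs). Differently numbered pairs were not compared, so this cannot settle whether the numbers pair the samples, which is not stated. With the replicate block, the difference of the RARB responses was 0 and no member call changed. Depth limits CRABP2 and ALDH1A1.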
